A study of Homo sapiens with 9 samples.

Results

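Mitosis genes encode the machinery that carries a cell from G2 into mitosis, divides the chromosomes and separates the daughter cells. The 60 genes described here were chosen by symbol from the deposited table of 28216 genes, as listed genes of the G2/M transition, the spindle, the kinetochore and cytokinesis. All 60 were found and all 60 passed the filter on low counts in each comparison. They were sorted into 9 roles: entry into mitosis (10 genes), transcription factors (2), chromosome structure (6), the chromosomal passenger complex (4), the spindle checkpoint (5), centromere and kinetochore (8), spindle and centriole (11), cytokinesis (9), and anaphase and mitotic exit (5). The rule itself uses gene symbols only, but the members were chosen with earlier results of these data known.

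The counts come from 9 poly(A) RNA libraries of established prostate cancer cell lines, 3 in each group. LNCaP cells (here clone FCG), a line grown from a lymph node metastasis that responds to androgens, were starved of steroids for 24 h in RPMI without phenol red and with 10% charcoal-stripped serum. They then received 10 nM androgen or 0.01% ethanol as vehicle for 48 h. The sample labels name the androgen dihydrotestosterone, whereas the main text of the study names R1881, a synthetic androgen. PC3 cells, a line from a bone metastasis, were untreated and grew in F12K medium with 10% serum that was not described as stripped. The labels give the genotype of every library as WT and the cell type as epithelial. Cell line, medium and serum therefore change together between PC3 and LNCaP cells and cannot be told apart. Nothing in the labels says that the 3 libraries of a group came from separate cultures, so the p-values measure the spread between these libraries, which may be technical.

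The reads counted on genes numbered 17397706 in the shallowest library and 25640325 in the deepest. VIM, which encodes the mesenchymal filament vimentin, lay between 1144 and 1297 CPM (counts scaled by library size with TMM factors) in PC3 libraries and at 1.26 to 12.2 CPM in LNCaP libraries. Of the epithelial markers, EPCAM lay at 29.4 to 34.6 CPM in PC3 libraries and at 109.8 to 129.7 CPM in LNCaP libraries, and CDH1, the gene of E-cadherin, lay at 9.96 to 13.7 CPM in PC3 libraries and at 541 to 683 CPM in LNCaP libraries. The keratin genes KRT8 and KRT18 moved with the groups, from 263 to 277 and 328 to 339 CPM with vehicle to 1514 to 1692 and 1126 to 1309.9 CPM with androgen, and lay at 127 to 130.3 and 281 to 285 CPM in PC3 libraries. KLK3, an androgen-induced gene, lay at 504 to 702 CPM with vehicle and at 3969 to 4486 CPM with androgen. The summed level of 4 leukocyte markers did not pass 0.512 CPM in any library. Of the endothelial markers CDH5 was at 0 in all libraries, while VWF lay at 16.3 to 18.4 CPM with vehicle and 6.63 to 7.95 CPM with androgen but at 0.0393 to 0.0870 CPM in PC3 libraries, and PECAM1 lay at 1.85 to 3.36 CPM in PC3 libraries and at 0 to 0.0524 CPM in LNCaP libraries. Of the fibroblast markers COL1A1 lay between 11.9 and 40.7 CPM and DCN at or near 0. The part of these markers in the results was not tested.

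Most mitosis genes are switched off in resting and early cycling cells and are transcribed from late S phase to mitosis. The DREAM complex, built from MuvB proteins, E2F4 and the RB relatives p107 and p130, represses them, and the MuvB core then joins MYBL2 and FOXM1, which activate them. Their promoters are known for the cell cycle genes homology region (CHR), a short element that MuvB proteins bind, placed a short way downstream of CCAAT boxes, which bind the factor NF-Y. DNA replication genes, which peak earlier, are instead known for E2F sites.

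Promoter sequences are shown because the 60 genes moved together, as described further on. RefSeq (GRCh38.p14) gave windows of 300 bases around an annotated start, 250 before it and 50 after, for 51 of the 60 genes, with 66 windows in all. BUB3, RACGAP1, KNL1, AURKA, TPX2, TTK, BIRC5, FOXM1 and UBE2C were not in the table used here. The letters searched on both strands were TTTGAA and also TTCGAA for the CHR. The CCAAT box was searched as those letters. For E2F sites the letters were TTTGGCGC with the variants TTTCCCGC, then TTTCGCGC and lastly TTTGCCGC. The 130 bases that end just before the start are printed 5′ to 3′, with those letters in capitals on either strand, so TTCAAA marks a CHR on the opposite strand and ATTGG marks a CCAAT box there. The first set holds genes of entry into mitosis and exit from it that have both elements.
CCNB2 (chr15:59105016-59105145, plus strand): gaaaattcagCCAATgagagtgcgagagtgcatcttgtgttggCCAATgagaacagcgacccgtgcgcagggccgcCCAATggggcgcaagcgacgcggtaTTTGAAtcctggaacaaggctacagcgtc
PLK1 (chr16:23678759-23678888, plus strand): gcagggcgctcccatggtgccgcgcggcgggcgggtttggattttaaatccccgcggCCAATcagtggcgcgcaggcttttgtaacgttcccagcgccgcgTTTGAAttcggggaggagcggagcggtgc
CDC20 (chr1:43358851-43358980, plus strand): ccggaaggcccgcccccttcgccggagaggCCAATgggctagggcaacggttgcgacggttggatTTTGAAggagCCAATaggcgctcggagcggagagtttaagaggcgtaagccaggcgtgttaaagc

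CCNB2 encodes a B-type cyclin, PLK1 a kinase of mitotic entry and CDC20 an activator of the anaphase-promoting complex. In CCNB2 the CHR letters started 29 bases before the start, and 3 CCAAT boxes started 54, 87 and 120 bases before it. PLK1 also had its CHR letters 29 bases before the start. CDC20 carried them 65 bases before it, between CCAAT boxes.

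The next stretches belong to a paralog pair whose levels differed between the cell lines, and to the members that stood at opposite ends of the comparison of PC3 with androgen-treated LNCaP cells.
CKS1B (chr1:154974551-154974680, plus strand): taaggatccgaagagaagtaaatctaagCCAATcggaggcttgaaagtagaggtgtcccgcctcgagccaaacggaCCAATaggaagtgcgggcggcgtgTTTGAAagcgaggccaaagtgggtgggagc
CKS2 (chr9:89311065-89311194, plus strand): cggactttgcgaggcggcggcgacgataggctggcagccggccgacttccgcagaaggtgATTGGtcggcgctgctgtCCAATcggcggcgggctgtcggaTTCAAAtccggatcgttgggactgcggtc
CDK1 (chr10:60778348-60778477, plus strand): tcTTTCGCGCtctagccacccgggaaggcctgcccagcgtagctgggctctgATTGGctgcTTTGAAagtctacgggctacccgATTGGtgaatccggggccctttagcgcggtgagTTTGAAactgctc
CDC25B (chr20:3796180-3796309, plus strand): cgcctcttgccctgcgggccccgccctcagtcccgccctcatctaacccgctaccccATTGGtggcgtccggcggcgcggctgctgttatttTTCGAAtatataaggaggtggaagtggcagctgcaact

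CKS1B and CKS2 encode small subunits of cyclin-dependent kinases, CDK1 is the kinase of mitosis and CDC25B the phosphatase that starts to activate it. The CKS1B stretch had its CHR letters 30 bases before the start and CKS2 had them 29 bases before it on the other strand. In CDK1 there were 2 CHR matches, 2 CCAAT boxes and 1 E2F match. CDK1 has 2 windows and CDC25B has 4 in the table, and the window with most kinds of match is shown. For CDC25B the CHR letters in that window were TTCGAA.

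The last set shows members whose windows held CCAAT boxes but none of the CHR letters searched. No other letters were searched for the CHR, so these windows may hold one in another form.
CCNB1 (chr5:69167020-69167149, plus strand): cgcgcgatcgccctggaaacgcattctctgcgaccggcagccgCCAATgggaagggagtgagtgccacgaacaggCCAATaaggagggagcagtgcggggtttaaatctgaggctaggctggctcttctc
KIF20A (chr5:138178982-138179111, plus strand): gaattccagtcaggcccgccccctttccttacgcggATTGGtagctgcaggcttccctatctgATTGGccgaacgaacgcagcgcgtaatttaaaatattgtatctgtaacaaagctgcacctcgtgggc
PTTG1 (chr5:160421725-160421854, plus strand): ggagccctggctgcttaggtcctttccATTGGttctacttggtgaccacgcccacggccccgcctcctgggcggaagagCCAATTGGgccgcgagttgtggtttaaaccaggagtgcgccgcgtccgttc

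CCNB1 encodes the other main mitotic cyclin, KIF20A a kinesin of the central spindle and PTTG1 securin, the inhibitor of separase. PTTG1 has 2 windows, of which 1 is shown, and 2 of its 3 CCAAT matches overlap in opposite directions.

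Over the 66 windows of the mitosis genes, 66.7% held the CHR letters, against 16.4% of all 35116 windows of the table and 11.4% of the windows of genes tested in LNCaP cells. CCAAT was found in 68.2% of the member windows and in 34.6% of all windows. Both together were found in 51.5% and 6.38%. E2F letters were found in 7.58% of the member windows, in 3.31% of all windows and in 5.14% of the windows of genes tested in LNCaP cells. Counted by gene, the share was 7.84% of the members and 6.97% of the genes tested, so the 2 lie close. A list of 42 DNA replication genes had another make-up, with the CHR letters in 4.17% of its 48 windows, CCAAT in 60.4% and E2F letters in 39.6%. In 58 other mitosis genes, the shares were 66.7% for the CHR, 68.8% for CCAAT and 10.4% for E2F letters. Such matches describe letters in these windows, and no binding was measured. CENPE, KIF2C and MYBL2 had neither CHR nor CCAAT letters in their windows.

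The comparison of androgen-treated with vehicle-treated LNCaP cells asks what the androgen did to the RNA of these genes. All 60 mitosis genes were lower with androgen, and 59 were called, which means an adjusted p under 0.05 with at least a 2-fold difference in edgeR's quasi-likelihood test. Over all 11697 genes tested, 7.49% were called lower and 6.54% higher. All 60 had an adjusted p under 0.05 in the direction of a fall, against 37.8% of all genes, and in all 60 the 3 androgen libraries lay below the 3 vehicle libraries, against 39.3% of all genes. The median log2 fold change of the mitosis genes was -1.87 and that of all genes tested was -0.01. In bulk RNA, fewer cycling cells and less of these RNAs in each cell cannot be told apart.

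**Figure D1:**
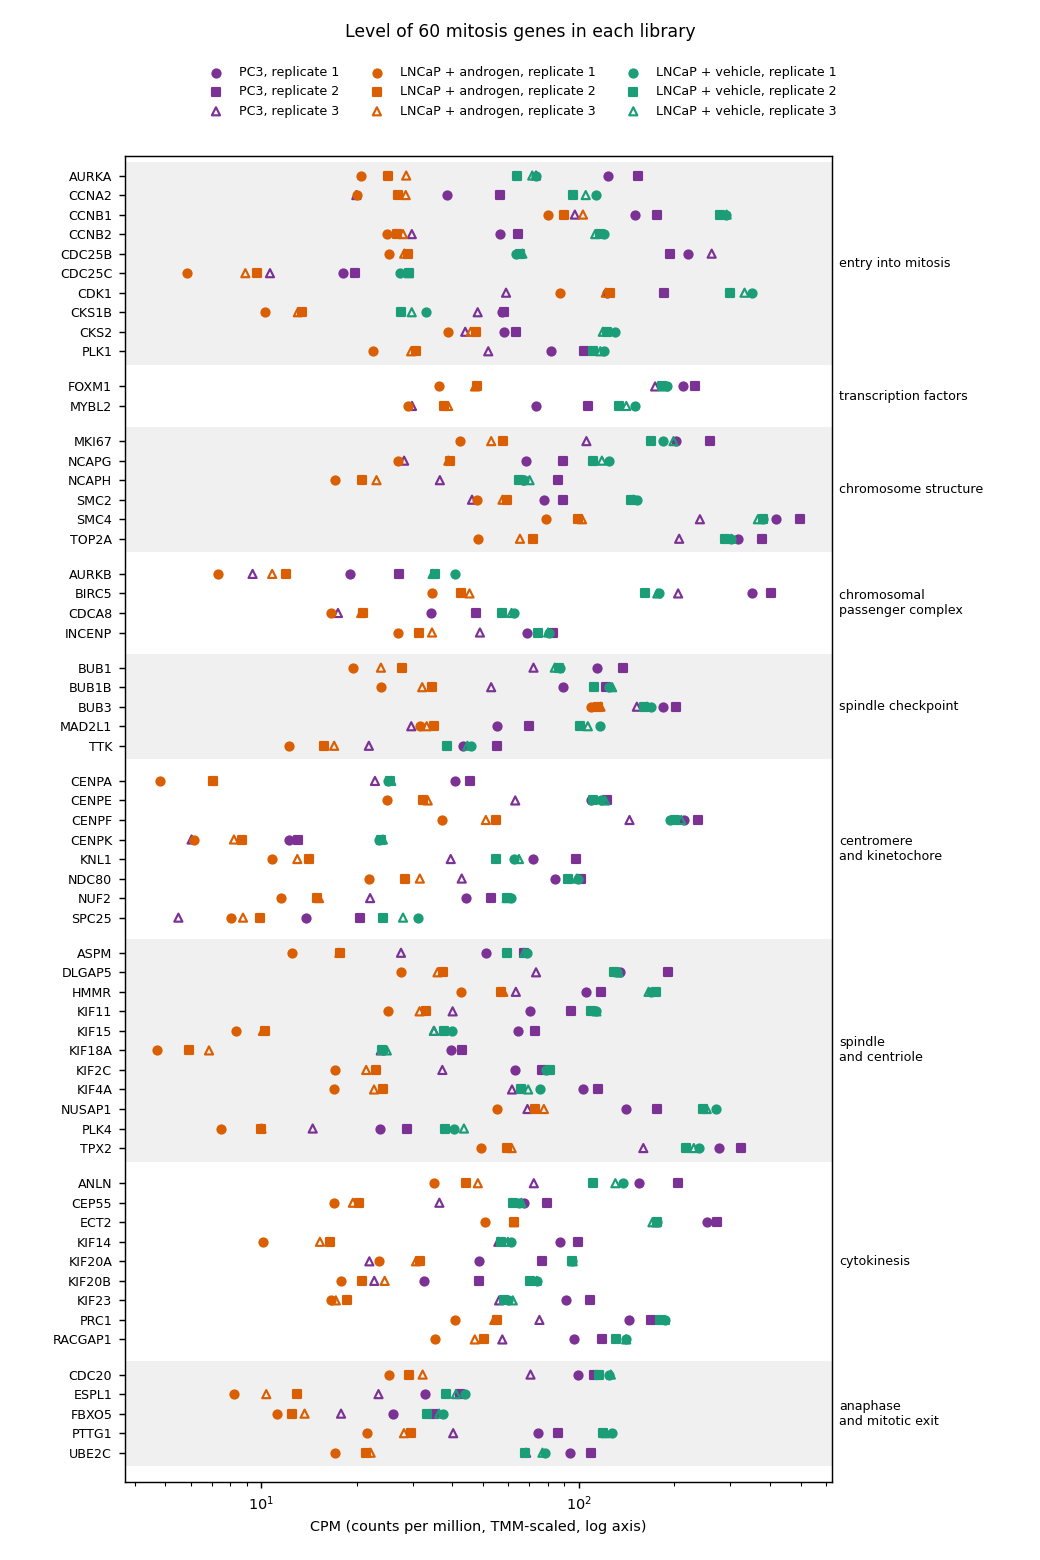
Level of each mitosis gene in CPM on a log axis, 1 row per gene and 1 symbol per library, sorted by role. The androgen-treated LNCaP libraries (orange) lie left of the vehicle-treated ones (green) in all 60 rows, and PC3 replicate 3 (open purple triangle) lies left of the other PC3 libraries in 59 rows.

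The fall was seen in all 9 roles, and no test compared them. The median log2 fold change was -1.61 for entry into mitosis, -2.06 for the transcription factors, -1.80 for chromosome structure, -1.77 for the chromosomal passenger complex, -1.70 for the spindle checkpoint, -1.98 for centromere and kinetochore, -1.97 for spindle and centriole, -1.77 for cytokinesis and -1.97 for anaphase and mitotic exit. Of the 60 genes, 53 lay between -2.3 and -1.5. The standard deviation of the 60 log2 fold changes was 0.30, and the median standard error of a single gene was 0.08.

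TOP2A, which encodes the topoisomerase that untangles sister chromatids, fell most. Its level was 303, 288 and 303 CPM in vehicle replicates 1, 2 and 3, and 48.0, 72.0 and 65.3 CPM in the androgen replicates. The groups lay far apart, with androgen replicate 1 lowest. The log2 fold change of TOP2A was -2.27 (standard error, SE, of 0.10, edgeR adjusted p = 2.84e-10).

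CCNB2 had 120.5, 117 and 113 CPM with vehicle and 24.8, 26.7 and 28.0 CPM with androgen. Both groups were tight and did not overlap, and the log2 fold change of -2.14 (SE 0.05, edgeR adjusted p = 1.3e-12) had the smallest adjusted p of the 60 genes. The other large falls were in KNL1, a scaffold of the outer kinetochore, with a log2 fold change of -2.27 (SE 0.09), PTTG1 with -2.22 (SE 0.08) and PLK4, the kinase that starts centriole duplication, with -2.15 (SE 0.10).

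Among the factors that switch on mitosis genes, FOXM1 had 190.3, 183 and 186 CPM with vehicle and 36.4, 47.7 and 47.2 CPM with androgen. MYBL2 had 151, 134 and 141 CPM with vehicle and 29.1, 37.6 and 38.8 CPM with androgen. In both genes the androgen libraries were all lower, with log2 fold changes of -2.09 (SE 0.07) and -2.02 (SE 0.08).

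MKI67, the gene of the proliferation antigen Ki-67, had 184, 168 and 199 CPM with vehicle against 42.2, 57.8 and 53.0 CPM with androgen, a log2 fold change of -1.85 (SE 0.09, edgeR adjusted p = 7.8e-10). For CDK1, the levels were 352, 299 and 333 CPM against 87.5, 125 and 122 CPM, and the log2 fold change was -1.56 (SE 0.10, edgeR adjusted p = 1.62e-08). Neither gene overlapped between the groups. The fall of the kinases was -2.07 for PLK1, -1.89 for AURKB and -1.49 for AURKA on the log2 scale, and that of the survivin gene BIRC5 was -2.08.

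The kinetochore gene NDC80 had 99.6, 92.3 and 98.6 CPM with vehicle and 21.9, 28.4 and 31.6 CPM with androgen, without overlap (log2 fold change -1.83, standard error 0.09). CENPA, the centromere histone, changed by -2.02 and CENPK, of the inner kinetochore, by -1.64 on the log2 scale. For the motors, the log2 fold change was -1.91 for KIF11, which pushes spindle poles apart, -1.74 for KIF20A and -1.79 for KIF20B. At the exit from mitosis, the changes were -2.08 for CDC20, -1.88 for UBE2C, which encodes the ubiquitin-conjugating enzyme of the anaphase-promoting complex, and -1.97 for ESPL1, which encodes separase. SMC4, a condensin subunit, changed by -2.01.

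The smallest called falls were those of CDC25B, CKS1B and INCENP, at -1.25, -1.30 and -1.34 on the log2 scale. BUB3 was the member that was not called. This checkpoint gene had 168, 161 and 164 CPM with vehicle and 109, 115 and 117 CPM with androgen. The groups did not overlap, but the log2 fold change of -0.53 (SE 0.04, edgeR adjusted p = 5.82e-08) stayed under a fold change of 2. The other checkpoint genes fell more, with log2 fold changes of -1.86 for BUB1, -2.02 for BUB1B, -1.70 for MAD2L1 and -1.53 for TTK.

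**Figure D2:**
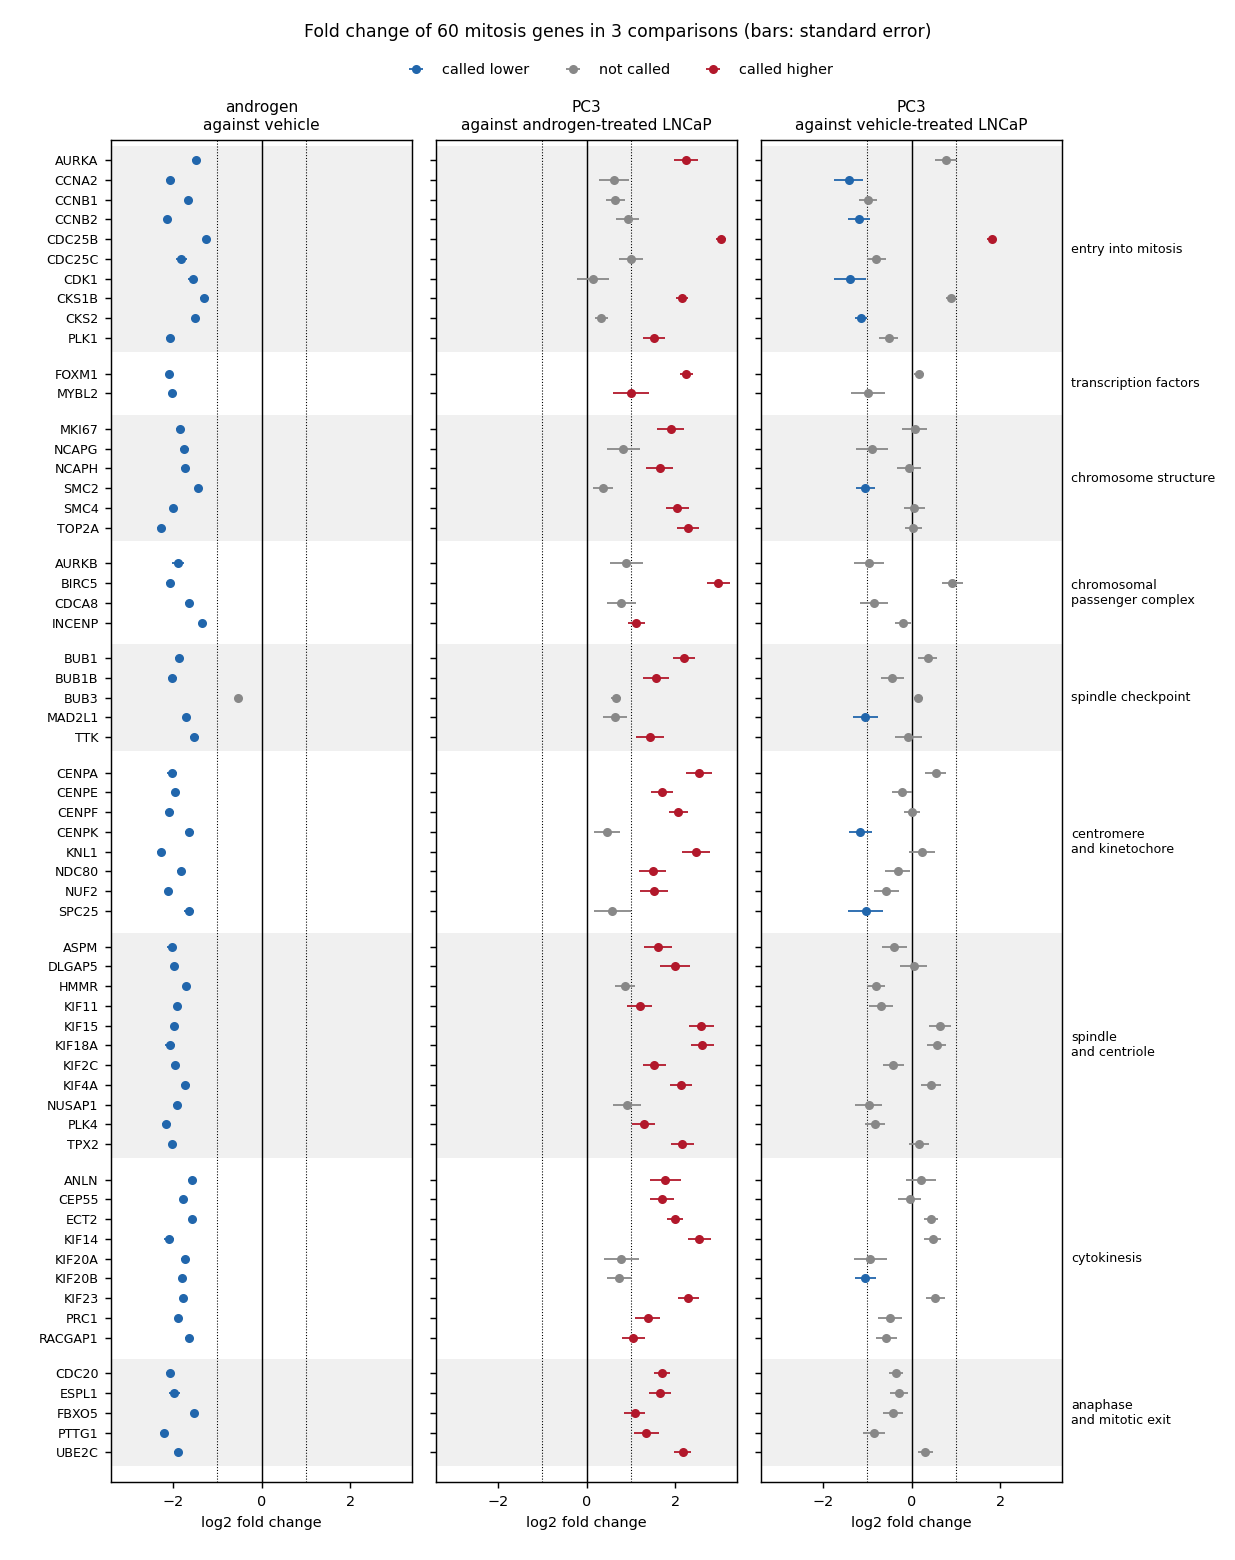
Log2 fold change of each mitosis gene with its standard error from edgeR, 1 panel per comparison, dotted lines at a fold change of 2. The 60 genes form a narrow band left of 0 with androgen (59 called lower), lie right of 0 in PC3 against androgen-treated LNCaP cells (42 called higher), and straddle 0 in PC3 against vehicle-treated LNCaP cells (1 called higher, 9 lower).

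Together the 60 genes held 0.692% to 0.739% of the counts in vehicle libraries and 0.159% to 0.202% in androgen libraries. Androgen replicate 1 was the lowest, with a summed level of 1666 CPM against 2141 and 2144 CPM in the other androgen libraries, whereas the vehicle libraries lay between 6610 and 7059 CPM. The coefficient of variation of a mitosis gene had a median of 4.07% over the vehicle libraries, close to the 4.69% of all genes tested. Over the androgen libraries it was 15.5%, against 5.22% for all genes. Without androgen replicate 1, 59 genes were still called.

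Other cell cycle lists are set beside the mitosis genes, with no test between lists. Of 58 other mitosis genes, 49 were called lower and 2 higher, with a median log2 fold change of -1.60. The 2 that rose were CENPN, a centromere protein gene, and NCAPD3, which encodes a subunit of condensin II. CENPN had 113, 103 and 111 CPM with vehicle and 953, 898 and 947 CPM with androgen (log2 fold change 3.10, SE 0.05, edgeR adjusted p = 3.18e-14). For NCAPD3, the levels were 149.5, 132 and 145 CPM against 488, 641 and 632 CPM (log2 fold change 2.05, SE 0.09, edgeR adjusted p = 2.09e-10). In both genes all androgen libraries were above all vehicle libraries, opposite to the 60 genes. The largest falls of that list were in PBK and PIF1, with log2 fold changes of -2.22 and -2.21.

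All 42 DNA replication genes had an adjusted p under 0.05 in the direction of a fall, and 30 were called lower, with a median log2 fold change of -1.29, from -2.28 for the thymidine kinase gene TK1 to -0.22. None of the 15 core genes of the anaphase-promoting complex was called by edgeR. In that list, 5 had an adjusted p under 0.05 upward and 5 downward, and the median log2 fold change was 0.05. Cohesin genes, which hold sister chromatids together, gave 0 called of 10 in edgeR, with 8 lower and 1 higher by adjusted p alone and a median of -0.17.

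Of 11 genes of the DREAM complex, MuvB and the RB family, 2 were called lower, namely LIN9 (log2 fold change -1.60), a MuvB subunit, and RBL1 (-1.25), the gene of p107. RBL2, the gene of p130, was higher with a log2 fold change of 0.39 (edgeR adjusted p = 1.64e-05), under a fold change of 2. Among 8 genes listed as CDK inhibitors, CDKN2B rose from 2.83, 2.03 and 2.59 CPM to 22.3, 22.3 and 20.5 CPM (log2 fold change 3.12, standard error 0.12). CDKN1C also rose, with a log2 fold change of 1.60. CDKN2C (-1.75) and CDKN3 (-1.66) were called lower, and CDKN3 encodes a phosphatase that acts on CDKs rather than a classical inhibitor. CDKN1A, the gene of p21, had a log2 fold change of 0.32 and CDKN1B, the gene of p27, of -0.39, neither called. Of 10 G1/S regulators tested, CCNE2 (-1.94), E2F1 (-1.49) and E2F2 (-1.47) were called lower and 0 higher.

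**Figure D3:**
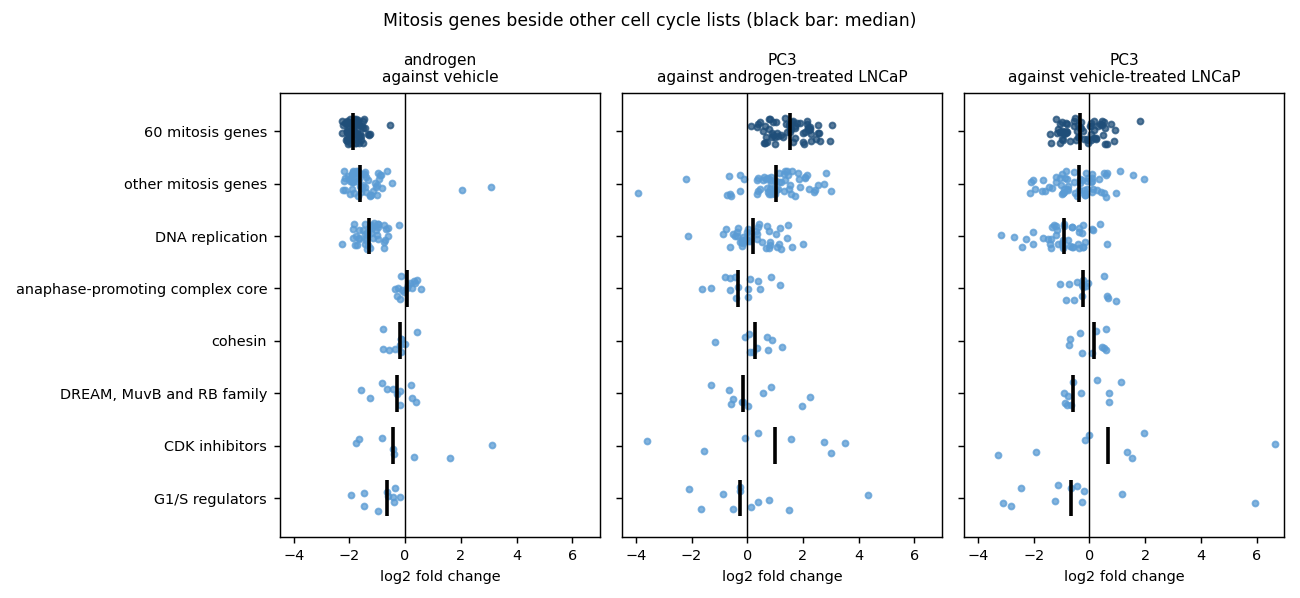
Log2 fold change of each gene (points) and median (black bar) for the 60 mitosis genes and 7 other cell cycle lists, in 3 panels by comparison. With androgen the mitosis genes sit around -1.87 and DNA replication genes around -1.29, while the core of the anaphase-promoting complex stays around 0.05.

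Within the 51 genes with a promoter window, genes with and without the CHR letters fell with androgen, and the difference between them was not tested. The median log2 fold change was -1.85 over the 41 genes with the CHR letters and -1.92 over the 10 without. Those 10 may hold a CHR in letters that were not searched. With CCAAT it was -1.83 over 40 genes, and without it was -1.97 over 11.

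PC3 replicate 3 stood apart before any comparison between the lines. In 59 of the 60 mitosis genes it was lower than both other PC3 libraries, against 37.1% of the 12541 genes tested with androgen-treated LNCaP cells. The median ratio of PC3 replicate 3 to the mean of replicates 1 and 2 was 0.532 for mitosis genes and 1.02 for all genes. All 58 other mitosis genes and all 42 DNA replication genes were also lower than in both other libraries, with median ratios of 0.522 and 0.454, whereas the ratio was 0.928 for the core of the anaphase-promoting complex. CDC25B was the exception, with 221, 194 and 262 CPM in replicates 1, 2 and 3. The steepest drops were in SPC25, a kinetochore gene, with 13.8, 20.5 and 5.49 CPM, and in MYBL2 with 73.5, 107 and 29.9 CPM. Summed over the 60 genes, PC3 libraries held 6287, 7521 and 3921 CPM, so replicate 3 lay closer to the androgen-treated LNCaP libraries than the other PC3 libraries did. The coefficient of variation of a mitosis gene over PC3 libraries had a median of 34.0%, against 9.98% for all genes. Most counts over lists and many single values on PC3 cells are therefore followed by those without replicate 3. Genes without overlap between groups were counted with all PC3 libraries only. With 2 PC3 libraries left, a gene counted only in PC3 cells cannot pass the filter on low counts, and 11313 and 11584 genes were tested against the androgen-treated and vehicle-treated cells. The shares of all genes called higher without replicate 3 leave such genes out. They cannot be set directly against the shares with replicate 3. What set this library apart was not tested.

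**Figure D4:**
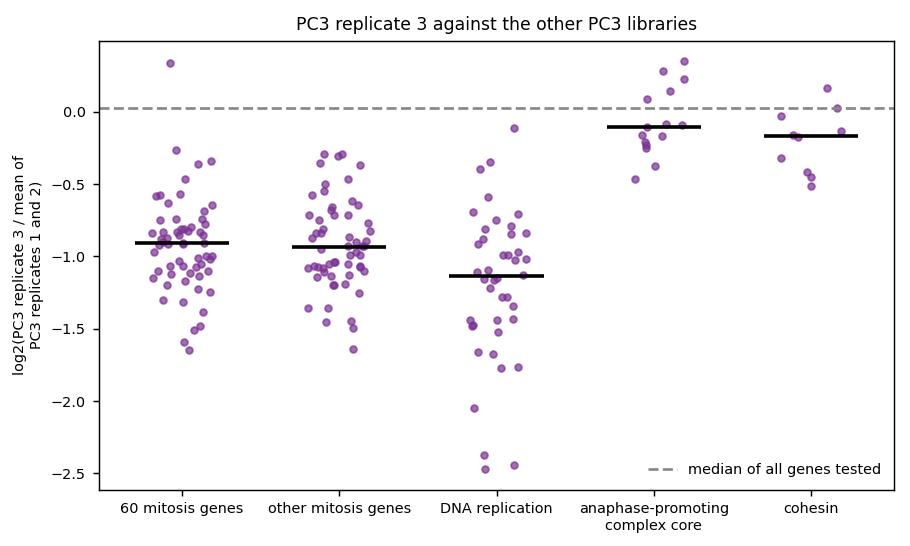
Log2 ratio of PC3 replicate 3 to the mean of PC3 replicates 1 and 2 for each gene (points), with the median of each list (black bars) and of all genes tested (dashed line). Mitosis genes have a median ratio of 0.532 and DNA replication genes of 0.454, and CDC25B is the only mitosis gene above the dashed line.

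The comparison of PC3 with androgen-treated LNCaP cells sets an androgen-independent line beside an androgen-stimulated one. All 60 mitosis genes had a higher mean in PC3 cells by log2 fold change, and 42 were called higher and 0 lower. Of all 12541 genes tested, 24.0% passed as higher and 22.1% as lower. With the adjusted p alone 49 were higher, against 42.9% of all genes, and in 45 genes the groups did not overlap, against 43.6%. The median log2 fold change was 1.53 for the mitosis genes and 0.04 for all genes. Without PC3 replicate 3, 54 were called higher, beside 18.8% of all genes, and the median was 1.91. All 60 then had an adjusted p under 0.05, beside 4859 of 11313 genes tested that were higher by the adjusted p alone.

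CDC25B showed the largest difference, with 194 to 262 CPM in PC3 cells against 25.2, 29.0 and 28.2 CPM in androgen-treated LNCaP cells. The lowest PC3 library was far above the highest LNCaP library, and the log2 fold change was 3.04 (SE 0.11, edgeR adjusted p = 1.4e-07). BIRC5 had 352, 403 and 206 CPM in PC3 cells against 34.7, 42.7 and 45.3 CPM, also without overlap (log2 fold change 2.98, SE 0.26, edgeR adjusted p = 1.19e-05), and without PC3 replicate 3 its value was 3.33. The kinesins KIF18A, KIF15 and KIF14 followed, with log2 fold changes of 2.62, 2.59 and 2.55, or 2.96, 2.97 and 2.87 without PC3 replicate 3. CENPA had 40.7, 45.4 and 22.8 CPM in PC3 cells against 4.79, 7.06 and 7.06 CPM (log2 fold change 2.54, SE 0.29), and 2.90 without PC3 replicate 3. AURKA, FOXM1 and TOP2A lay at 2.25, 2.25 and 2.29, or 2.61, 2.48 and 2.62 without PC3 replicate 3.

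The opposite end was held by CDK1, at 123, 185 and 59.1 CPM in PC3 cells and 87.5, 125 and 122 CPM in androgen-treated LNCaP cells. The groups overlapped, and the log2 fold change was 0.15 (SE 0.37, edgeR adjusted p = 0.714). Without PC3 replicate 3 it was 0.59 (edgeR adjusted p = 0.0119), while without PC3 replicate 2 it turned to -0.17 and without androgen replicate 1 to -0.08. CKS2, a partner of CDK1, had 58.0, 63.5 and 43.9 CPM against 38.8, 47.5 and 45.7 CPM, which overlap (log2 fold change 0.33, standard error 0.15, edgeR adjusted p = 0.0665). Also not called were CCNA2 (0.62), MAD2L1 (0.64), CCNB1 (0.65), CCNB2 (0.93), CDC25C (1.00), CENPK (0.46), KIF20A (0.79), KIF20B (0.73), AURKB (0.90), BUB3 (0.66), NCAPG (0.83), SMC2 (0.38), CDCA8 (0.78), SPC25 (0.58), NUSAP1 (0.92) and HMMR (0.87), which completes the 18. The genes not called without PC3 replicate 3 were CDK1, CCNB1, CKS2, SMC2, BUB3 and CENPK. Among the 10 genes of entry into mitosis, 4 were called, namely CDC25B, AURKA, CKS1B and PLK1. In the other roles, the called genes were 2 of 2 transcription factors, 4 of 6 of chromosome structure, 2 of 4 of the passenger complex, 3 of 5 of the checkpoint, 6 of 8 of the kinetochore, 9 of 11 of the spindle, 7 of 9 of cytokinesis and 5 of 5 of anaphase and exit. With replicate 3 left out they were 7 of 10 for entry, 2 of 2, 5 of 6, 4 of 4, 4 of 5, 7 of 8, 11 of 11, 9 of 9 and 5 of 5 in the same order. Of the transcription factors, MYBL2 passed narrowly (edgeR adjusted p = 0.0471), its PC3 and androgen-treated libraries overlapped, and its call was lost in 10 alternatives, with values from 0.68 to 1.49 when 1 library was left out.

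Against vehicle-treated LNCaP cells the picture changed. Only CDC25B was called higher in PC3 cells, and 9 genes were called lower, with a median log2 fold change of -0.34 over the 60 genes and 0.03 over all genes. Of all 12686 genes tested, 22.2% passed as higher and 21.0% as lower. By adjusted p alone 7 were higher and 21 lower, against 42.6% and 40.8% of all genes, and the groups did not overlap in 4 upward and 27 downward, against 42.8% and 43.0%. Without PC3 replicate 3, 4 were called higher and 1 lower, beside 16.4% and 21.3% of all genes, and the median was -0.02. Those 4 were CDC25B, BIRC5, AURKA and CKS1B, and the 1 lower was CCNA2. In that fit the adjusted p alone gave 26 higher and 23 lower, beside 4920 and 5112 of 11584 genes tested. Without PC3 replicate 2, in contrast, 1 was called higher and 16 lower, beside 2038 and 2519 of 11587 genes tested. The vehicle-treated libraries enter this comparison and the androgen comparison, and the PC3 libraries enter both comparisons of the lines, so the lists are not independent of each other.

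CDC25B had 63.7, 65.5 and 66.5 CPM in vehicle-treated LNCaP cells, below each PC3 library, which gave 1.82 on the log2 scale (SE 0.10, edgeR adjusted p = 1.19e-06). CDK1, with 123, 185 and 59.1 CPM in PC3 cells, had 352, 299 and 333 CPM with vehicle. All PC3 libraries were lower, at -1.39 on the log2 scale (SE 0.36, edgeR adjusted p = 0.00738) and at -0.98 without PC3 replicate 3. CCNA2, which encodes cyclin A2, did not pass 56.5 CPM in PC3 cells and had 113, 95.8 and 105 CPM with vehicle, which gave -1.42 (SE 0.33), or -1.03 without PC3 replicate 3. The other called falls were CCNB2 (-1.19), CENPK (-1.16), CKS2 (-1.14), KIF20B (-1.05), SMC2 (-1.04), MAD2L1 (-1.04) and SPC25 (-1.04). When PC3 replicate 3 was left out these 7 lay between -0.92 for CKS2 and -0.59 for SPC25 and none was called. All 7 kept an adjusted p under 0.05 in that fit, where 5112 of 11584 genes tested were lower by the adjusted p alone.

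For some of the best-known proliferation genes the value against vehicle-treated LNCaP cells depended on PC3 replicate 3. With it, the log2 values were 0.07 for MKI67 (SE 0.29), 0.04 for TOP2A (SE 0.20), 0.06 for SMC4 (SE 0.24) and 0.01 for CENPF (SE 0.17), and none passed the adjusted p. The sign of these 4 values turned under other settings. With replicate 3 left out, they were 0.44 for MKI67, 0.33 for TOP2A, 0.39 for SMC4 and 0.28 for CENPF, and all 4 were higher in PC3 cells, with edgeR adjusted p values of 0.0023, 0.00157, 0.000497 and 0.00168, under a fold change of 2. PLK1 had 82.0, 104 and 51.9 CPM in PC3 cells against 120.1, 111 and 117 CPM, without overlap, and at -0.52 on the log2 scale it was not called (edgeR adjusted p = 0.0613), nor at -0.21 without PC3 replicate 3 (edgeR adjusted p = 0.0506).

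By group means, 38 of the 60 genes followed the order vehicle-treated LNCaP, PC3, androgen-treated LNCaP, and 22 the order PC3, vehicle-treated LNCaP, androgen-treated LNCaP. The split was 34 and 26 without PC3 replicate 3. The androgen-treated group was lowest in all 60 either way. Of 42 DNA replication genes, 9 were called higher and 1 lower in PC3 against androgen-treated LNCaP cells, beside the 24.0% and 22.1% of all genes, with a median log2 fold change of 0.22. With PC3 replicate 3 left out, 16 were called higher and 1 lower, beside 18.8% and 22.4% of all genes, and the median was 0.60. Set against vehicle-treated LNCaP cells, 0 of 42 passed as higher and 17 as lower in edgeR, beside 22.2% and 21.0% of all genes, with 1 higher and 25 lower by adjusted p alone, and the median was -0.93. Leaving out PC3 replicate 3, 10 were called lower, beside 21.3% of all genes, and 4 were higher and 26 lower by adjusted p alone, with a median of -0.54. The difference between these genes and the mitosis genes was not tested. Of the genes around the CDKs, CDKN1A had 9.68, 7.87 and 12.2 CPM in PC3 cells against 139, 111 and 116 CPM in androgen-treated LNCaP cells, with no overlap (log2 fold change -3.62, SE 0.17, edgeR adjusted p = 3.84e-07), and -3.67 without PC3 replicate 3. CDK6, a kinase of G1, went the other way, with 36.6 to 42.2 CPM in PC3 cells and 1.39 to 2.62 CPM in androgen-treated LNCaP cells (log2 fold change 4.33, SE 0.19), and it did not pass the filter without PC3 replicate 3.

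Members that act together were also set beside each other within a library. For 12 pairs of paralogs or of partners in a complex, the counts were divided by each other, which removes the scale of the library. Each count was first divided by the length of the gene's canonical GENCODE 44 transcript. In 8 of the 12 pairs the 3 PC3 libraries lay outside the range of the 6 LNCaP libraries. Of all 12541 single genes, 72.8% lay outside in the same way, so the count of 8 says nothing particular about these pairs, and the ratios are given as a description with no test. Which gene of a pair is on top was set by the list of pairs. Because the length used for a gene is the same in every library, a ratio can be compared between libraries. It was not used as a measure of the level of one gene over the other.

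CKS1B over CKS2 was 0.783, 0.723 and 0.865 in PC3 replicates 1, 2 and 3, and 0.177 to 0.226 in the 6 LNCaP libraries. The ranges were far apart, although 23.1% of the 74-nt stretches of CKS1B transcripts also occur in transcripts of other genes, so the level of CKS1B is less certain. BIRC5 over CDCA8, which encodes borealin, its partner in the passenger complex, was 9.46, 7.82 and 10.8 in PC3 cells and 1.88 to 2.65 in LNCaP cells. SMC4 over SMC2, both subunits of condensin, was 6.24, 6.45 and 6.05 in PC3 cells and 1.92 to 3.02 in LNCaP cells. KIF23 over RACGAP1, the subunits of centralspindlin, was 0.798, 0.781 and 0.829 in PC3 cells against 0.310 to 0.398. The ratio of AURKA to AURKB was 3.45 to 4.77 in PC3 cells and not above 1.73 in LNCaP cells, and that of BUB1 to BUB1B was 1.11 to 1.33 against 0.644 to 0.797. NDC80 over NUF2, partners at the kinetochore, and KIF20A over KIF20B overlapped between the lines.

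Between androgen-treated and vehicle-treated LNCaP libraries, 8 of the 12 ratios did not overlap, beside 77.8% of all single genes. CCNB1 over CCNB2 was 2.35, 2.47 and 2.70 with androgen and 1.77, 1.75 and 1.90 with vehicle. SMC4 over SMC2 was 2.91, 3.02 and 2.86 with vehicle and 1.92, 1.94 and 2.06 with androgen, and all androgen libraries were lower. On the log2 scale the mean ratio differed most for CDC25B over CDC25C, by 0.61, then for SMC4 over SMC2, by -0.57, and for AURKB over INCENP, by -0.55.

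**Figure D5:**
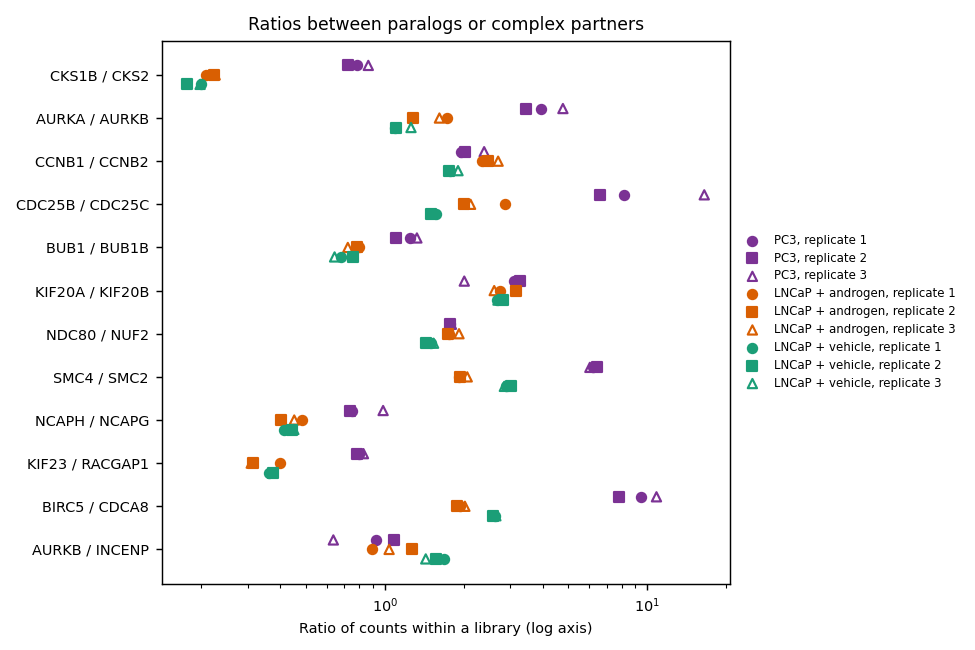
Ratio of counts per transcript length within each library for 12 pairs of paralogs or complex partners, on a log axis, 1 symbol per library. The PC3 libraries (purple) lie outside the range of all 6 LNCaP libraries in 8 pairs, such as CKS1B over CKS2 with 0.723 to 0.865 against 0.177 to 0.226.

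Levels per length (mean CPM divided by the length in kb of the canonical GENCODE 44 transcript) were ranked within each group. Which transcript of a gene was expressed was not measured, so the order of the genes depends on this choice of length. In vehicle-treated LNCaP cells CKS2 led with 202 CPM per kb, before CDK1 with 174, PTTG1 with 171 and CCNB1 with 142. The same 4 genes were the highest with androgen, with 71.5 CPM per kb for CKS2 and 59.0 for CDK1. In PC3 cells BIRC5 led with 124 CPM per kb, followed by UBE2C with 116, PTTG1 with 93.6 and CKS2 with 89.5. The same 4 led in this order without PC3 replicate 3, with 147 CPM per kb for BIRC5 and 130.4 for UBE2C. The spindle gene ASPM and the separase gene ESPL1 were among the 3 lowest per length in all groups, and ASPM was the lowest with vehicle and in PC3 cells (4.48 CPM per kb). Over PC3 libraries the spread of BIRC5 (coefficient of variation 32.0%) was larger than the gap to UBE2C, so their order is not certain.

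The 60 genes lie on 18 chromosomes. Of these genes, 29 had no 74-nt stretch of their transcripts that also occurs elsewhere in the genome or in a transcript of another gene. In 6 genes, 10% or more of the stretches did so. NUSAP1 (73.9%) and PRC1 (51.9%) had the largest shared parts, each mostly with another annotated gene, and NCAPG (30.2%), CKS1B (23.1%), SMC4 (16.4%) and FOXM1 (12.3%) followed. The levels of these 6 genes are uncertain. The search took both strands, so it would also mark overlap with a gene on the opposite strand, whose reads forward-strand counts leave out. Counts on the reverse strand were 0.334% of all counts of a member in the median, and 17.3% for CDC25C, which were not part of its level because only the forward strand was counted.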

How the data were processed

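The authors sequenced poly(A) RNA from 3 libraries per group as single-end reads with molecular identifiers, and deposited STAR gene counts on GRCh38 (per the submitters' notes cutadapt 4.1, STAR 2.7.7a and UMI-tools 1.1.2, whereas the methods text gives other versions of the first and second tool). The deposited table holds unnormalised counts, and 253944 of its 253944 values match the STAR forward-strand counts. Counts on genes were 17397706 to 25640325 per library (median 21434125), so precision for low genes is limited by counting. Of the reads, 20.3% to 25.4% were not counted on a gene and stayed out of library sizes.

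Groups came from the sample labels. The 6 libraries of a comparison were fitted alone with edgeR 4.0.16 (R 4.3.3): TMM scaling, genes above 3 CPM in at least 3 libraries, the quasi-likelihood F test and Benjamini-Hochberg adjustment over all genes tested. A gene was called with an adjusted p under 0.05 and at least a 2-fold difference. The authors' fit was a likelihood ratio test, and its batch term, which the sources do not name, was left out. Printed CPM use TMM factors over all 9 libraries. In simulated data 200 of 200 changed genes were recovered in each comparison, with 0 false calls. All planted changes were larger than a 2-fold difference, so recovery near or under that threshold was not tested. Recovery where a library departs in many genes together, as PC3 replicate 3 did, was not tested.

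Alternatives were DESeq2 1.42.0 (size factors, and its Wald test), the likelihood ratio test, no filter or a minimum of 10 counts throughout, calls by the adjusted p only, all 9 libraries in 1 fit, unstranded counts, a replicate block, and leaving out each library. Vehicle and androgen libraries of the same replicate number deviated together (r = 0.20, 0.23 and 0.21 over 11697 genes). Those of different numbers had r from -0.24 to 0.04. The numbers may therefore pair the LNCaP libraries, but no label says so, and the main fit used no pairing. Between PC3 and LNCaP libraries of the same number, r ran from -0.15 to 0.05.

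All 60 genes could be named. Called genes were named by the 5 largest changes in each direction per comparison, with a fixed set of regulators, and of other lists by their 2 largest changes each way. The members and lists were chosen with earlier results of these data known.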

Additional observations from a re-analysis of the deposited data

How the results depend on the processing

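The fall of the mitosis genes with androgen held in every alternative run: 59 or 60 genes were called lower, and leaving out 1 library gave 59 each time. With the replicate block 59 were called, and pairing changed no call of a mitosis gene there. In PC3 against androgen-treated LNCaP cells, leaving out 1 library gave 38 to 54 called genes. In PC3 against vehicle-treated LNCaP cells, 10 genes were called, leaving out 1 library gave 5 to 17, the replicate block gave 16 with either test, and the adjusted p alone gave 28. The PC3 numbers share only a number with the LNCaP libraries. Over all genes, 1641, 5773 and 5485 were called in the 3 comparisons, 2941, 9147 and 8713 without a filter on low counts, and 8763, 10530 and 10577 by the adjusted p alone. Direction turned for values near 0 in PC3 against vehicle-treated LNCaP cells, and the cause was not tested. With the replicate block, log2 fold changes were -0.023 for MKI67 (-0.024 with the likelihood ratio test), -0.0052 for TOP2A (-0.0054), -0.0059 for SMC4 (-0.0062), -0.0269 for CENPF (-0.0271) and -0.058 for DLGAP5 (-0.060). CENPF was also -0.0058 with DESeq2 size factors, -0.0057 in its Wald test, and -0.022 with all 9 libraries in 1 fit. Leaving out 1 library, values ranged from -0.14 to 0.44 for MKI67, -0.090 to 0.33 for TOP2A, -0.081 to 0.39 for SMC4, -0.12 to 0.28 for CENPF, -0.012 to 0.59 for KNL1, -0.22 to 0.42 for DLGAP5, -0.040 to 0.62 for ANLN, -0.27 to 0.30 for NCAPH, -0.35 to 0.063 for INCENP, -0.29 to 0.30 for TTK, -0.36 to 0.11 for CENPE, -0.49 to 0.054 for NDC80 and -0.20 to 0.30 for CEP55. CDK1 ranged from -0.17 to 0.59 in PC3 against androgen-treated LNCaP cells. All 60 passed the filter, so low counts removed none of them.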

Other observations

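In PC3 against androgen-treated LNCaP cells, 31 of 58 other mitosis genes were called higher and 2 lower, beside 24.0% and 22.1% of all genes tested. Without PC3 replicate 3, 40 of 57 tested were called higher and 2 lower, beside 18.8% and 22.4% of all genes. The largest rises were in CENPL (log2 fold change 3.00, and 3.32 without PC3 replicate 3), a centromere gene, and CIT (2.84 and 3.23), which encodes citron kinase of cytokinesis. The 2 lower genes were CENPN (-3.93, and -3.56 without it) and NCAPD3 (-2.19 and -1.91), the same genes that rose with androgen in LNCaP cells, and the androgen-treated libraries enter both comparisons. CENPN lay at 65.0, 80.0 and 38.1 CPM in PC3 cells, below each vehicle-treated LNCaP library, and NCAPD3 lay at 126, 160.4 and 97.9 CPM, which overlaps the vehicle-treated libraries.

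CDKN2B, the gene of the CDK4 and CDK6 inhibitor p15, had 291, 181 and 270.3 CPM in PC3 cells, above all LNCaP libraries, and its log2 fold change against androgen-treated LNCaP cells was 3.51, and 3.57 without PC3 replicate 3. CDKN3 had 182, 189 and 112 CPM in PC3 cells and 15.8, 22.2 and 23.5 CPM with androgen, without overlap (log2 fold change 2.99, and 3.31 without PC3 replicate 3). The MuvB gene LIN9 had 43.5, 53.7 and 29.2 CPM in PC3 cells and 8.51, 9.43 and 8.47 CPM with androgen, also without overlap (log2 fold change 2.27, and 2.59 without PC3 replicate 3).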
